A study of Mus musculus with 3 samples.

Results

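The mouse microRNAs miR-211-5p, miR-204-5p and miR-137-3p were followed through 3 small-RNA libraries. They were chosen by name, as 3 of the 1915 mature miRNAs that each library's count table lists. The libraries were exosomes of B16 cells (strain C57BL/6J, skin, melanoma), exosomes of JB6 cells (strain BALB/c, skin, labelled normal) and B16 cells themselves (strain C57BL/6J, skin, melanoma). Exosomes are small vesicles that cells release, and they had been collected here by ultracentrifugation. No treatment is named for any of the lines. With 1 library per source the spread between samples is unknown, no test across libraries was possible, and every interval covers counting error only. Cell line, strain and disease state differ together between the B16 and JB6 exosomes, and a comparison of JB6 exosomes with B16 cells differs in the kind of material as well.

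A miRNA is cut from a hairpin precursor with a 5p and a 3p arm, and the arm loaded into Argonaute pairs with target mRNAs through its seed, bases 2 to 8. miR-211 is carried in an intron of Trpm1, a channel gene of the melanocyte lineage that the transcription factor Mitf switches on, so the host gene and the miRNA are linked to pigment cell identity. miR-204 is carried in an intron of the related channel gene Trpm3 and is known from pigmented epithelium of the eye, kidney and brain. miR-137, known from neurons, targets Mitf mRNA in human melanoma cells.

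The mature sequences show why miR-211-5p and miR-204-5p are read side by side and why a read of either has to be matched closely. They are given 5′ to 3′ from RefSeq (build GRCm38.p6), with the seed in capitals, and all 3 members and their other arms were found there.
miR-211-5p: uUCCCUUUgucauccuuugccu
miR-204-5p: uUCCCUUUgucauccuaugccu
miR-137-3p: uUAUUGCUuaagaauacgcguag
miR-204-3p: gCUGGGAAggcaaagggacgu
miR-211-5p and miR-204-5p share the seed UCCCUUU and 21 of 22 bases. They differ by U17A, with positions counted from 1 at the 5′ end of miR-211-5p and the miR-204-5p base written last. The 3p arms of the same hairpins are less alike, with 14 of 21 bases identical when aligned from the 5′ end. miR-137-3p has a seed of its own that no other mature mouse miRNA in the RefSeq table carries. The 5p seed of the pair also occurs in miR-7670-3p, and the seed of miR-204-3p occurs in miR-7684-5p. Both of those miRNAs were listed at 0 in all 3 libraries.

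The hairpins that carry the pair are shown next, with both mature arms in capitals, because the arms behaved differently in the libraries.
Mir211: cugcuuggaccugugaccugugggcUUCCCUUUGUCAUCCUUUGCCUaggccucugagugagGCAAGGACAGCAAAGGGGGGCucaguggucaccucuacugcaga
Mir204: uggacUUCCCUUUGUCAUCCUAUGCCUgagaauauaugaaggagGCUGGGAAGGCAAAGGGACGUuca
In the GENCODE annotation of GRCm38, the assembly that mm10 names, Mir211 lies on the plus strand at chr7:64205806-64205911, in an intron of Trpm1 on the same strand. Mir204 lies on the plus strand at chr19:22750605-22750672, in an intron of Trpm3 on the same strand. Mir137 lies on the plus strand at chr3:118433857-118433929, within exons of the processed transcript Gm26871. Each mature arm of Mir211 and Mir204 occurred in full in the transcript of its own hairpin and of no other annotated gene.

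The depth of the libraries decides what can be seen of each miRNA. Summed over mature miRNAs, the counts came to 45677 in B16 exosomes, 4495956 in JB6 exosomes and 7925726 in B16 cells. No table listed a count from 1 to 9, so a listed 0 stands for at most 9 reads. That limit is 197 reads per 1000000 miRNA reads (RPM) in B16 exosomes, 2.002 RPM in JB6 exosomes and 1.14 RPM in B16 cells. Marker lists of other cell types, chosen with earlier results of these data known, were read as well. Of 7 keratinocyte and epithelial miRNAs, 0 were listed in B16 exosomes, 2 in JB6 exosomes (summed to 7.78 RPM) and 4 in B16 cells (24.9 RPM), with miR-141-3p, miR-205-5p and miR-429-3p at 0 in all. JB6 exosomes held the liver miRNA miR-122-5p at 251231 RPM, well above the 525 RPM of B16 exosomes and the 53.1 RPM of B16 cells. All 3 erythroid miRNAs were listed in JB6 exosomes (7478 RPM summed), 0 in B16 exosomes and 2 in B16 cells (20.9 RPM). The 5 mesenchymal miRNAs summed to 80566 RPM in B16 exosomes (4 listed), 34583 RPM in JB6 exosomes (5 listed) and 38335 RPM in B16 cells (4 listed). Of 4 leukocyte miRNAs, 0, 3 and 1 were listed in those libraries, at 15.3 RPM in JB6 exosomes and 1.26 RPM in B16 cells. The part of these other sources in the shares described next was not tested.

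miR-211-5p was a moderately abundant miRNA of both B16 libraries and was not listed in JB6 exosomes. It had 83 reads in B16 exosomes, 0 in JB6 exosomes and 21080 in B16 cells. As a share of miRNA reads this was 1817 RPM in B16 exosomes (exact 95% interval 1448 to 2252) and 2660 RPM in B16 cells (2624 to 2696). It was the 59th most abundant of 149 listed miRNAs in B16 exosomes, between miR-31-5p with 84 reads and miR-423-3p with 81. In B16 cells it was the 48th of 559, between miR-744-5p with 22521 reads and miR-532-5p with 20770.

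miR-204-5p, the seed twin, was scarce wherever it was listed. It had 0 reads in B16 exosomes, 14 in JB6 exosomes and 60 in B16 cells. Its share was 3.11 RPM in JB6 exosomes (1.70 to 5.22) and 7.57 RPM in B16 cells (5.78 to 9.74). At the share of B16 cells, 0.346 reads would fall in the B16 exosome library, so that library was too shallow to show it. In B16 cells it stood at position 349 of 559, level with miR-1929-5p, with 4 miRNAs at 61 reads above it and miR-505-5p at 58 below. In JB6 exosomes 5 other miRNAs also had 14 reads, 6 had 15 and 15 had 13, so its position of 347 of 389 there is not resolved.

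miR-137-3p was listed at 0 in all 3 libraries, and so was its other arm miR-137-5p. In B16 cells, the deepest library, that limits each to 1.14 RPM. miR-211-5p, at 2660 RPM, was far above this limit in the same cells. Of the 3, miR-211-5p alone was more than scarce in the melanoma cells. Within B16 cells the order of the members by listed counts was therefore miR-211-5p, miR-204-5p and miR-137-3p, with shares that did not overlap within counting error for the listed pair. The place of miR-204-5p rests on 60 reads. How many of them came from miR-211-5p, 1 base away, was not tested.

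**Figure D1:**
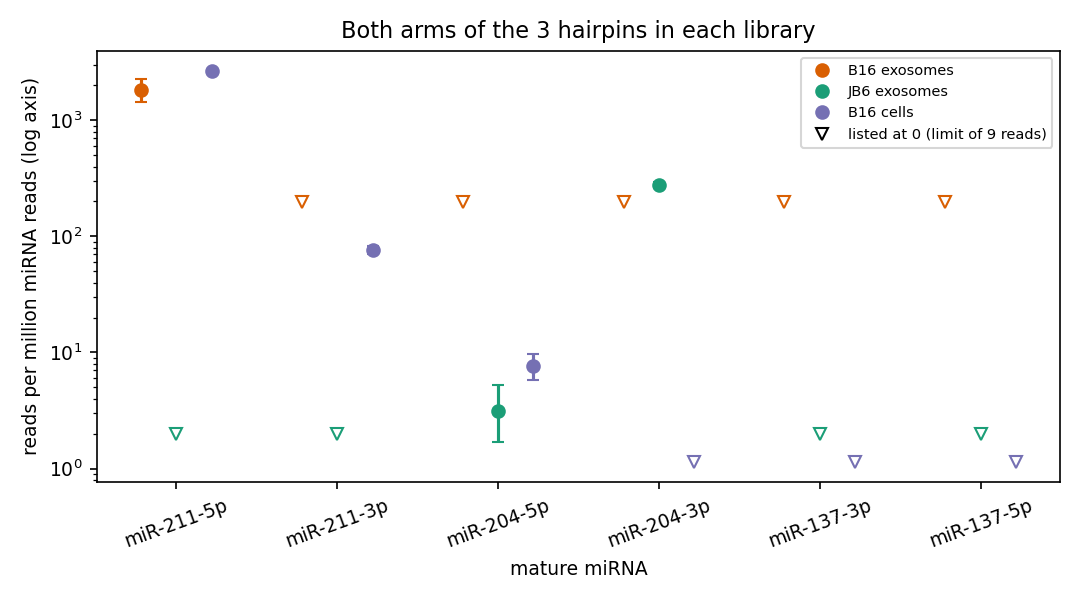
Share of miRNA reads (RPM, log axis) of both arms of the 3 hairpins in B16 exosomes, JB6 exosomes and B16 cells, 1 library each. Filled points are listed counts with exact 95% counting intervals, and open triangles mark the limit of 9 reads for a listed 0. miR-211-5p stands at 1817 RPM in B16 exosomes and 2660 RPM in B16 cells, while miR-137 has open triangles only.

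The split between the seed twins was lopsided in the B16 libraries. Per read of miR-204-5p there were 351 reads of miR-211-5p in B16 cells (272.8 to 461). In B16 exosomes the ratio was at least 9.22, taking 9 reads for the listed 0 of miR-204-5p, and the counting interval around that bound reaches down to 4.63. In JB6 exosomes it was at most 0.643 by the same rule, with an interval that reaches up to 1.59, so an equal split is not excluded there. These ratios are taken within a library and do not depend on how libraries are scaled. Because a single base separates the twins, they depend on how the authors matched reads with a mismatch, a setting that the sources used here do not give.

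B16 exosomes were set against B16 cells to see how far the vesicles mirror the miRNAs of the cells that shed them. To count as higher or lower, a share had to differ by at least 2-fold with a 95% interval that left out 1, among miRNAs with 30 or more reads over the pair. The share of miR-211-5p in B16 exosomes was 0.683 times that in B16 cells (0.544 to 0.847), which met neither call. At the share of B16 cells 121 reads were to be expected in the exosome library, and 83 were found. Of 422 miRNAs tested 8.53% were higher and 7.82% lower. Among the 144 of these listed in both libraries, miR-211-5p had the 42nd lowest ratio, on a scale where the median log2 ratio was 0.03. Its call depended on the scaling of the libraries, since it was 2.97-fold lower with TMM factors and 24.7-fold lower with the authors' own totals. It met no call with DESeq2 size factors, at 1.60-fold lower, or without the 10 most abundant miRNAs, at 1.40-fold lower. The authors' totals were 847694 reads in B16 exosomes, beside 45677 summed miRNA counts, and 8721363 in B16 cells, beside 7925726. miR-204-5p passed the minimum with its 60 cell reads, but its listed 0 in the exosomes left it not resolved. miR-137-3p had no reads to test.

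The 3p arm of miR-211 could be seen in the cells only. miR-211-3p had 0 reads in B16 exosomes, 0 in JB6 exosomes and 604 in B16 cells, where it held 76.2 RPM (70.3 to 82.5). In B16 cells the 5p arm took 97.2% of the hairpin's reads (96.99 to 97.4), or 34.9 reads of the 5p arm for each read of the 3p arm (32.2 to 37.9). In B16 exosomes that ratio was at least 9.22. At its share in the cells 3.48 reads of miR-211-3p would fall in the exosome library, below the smallest listed count of 10.

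**Figure D2:**
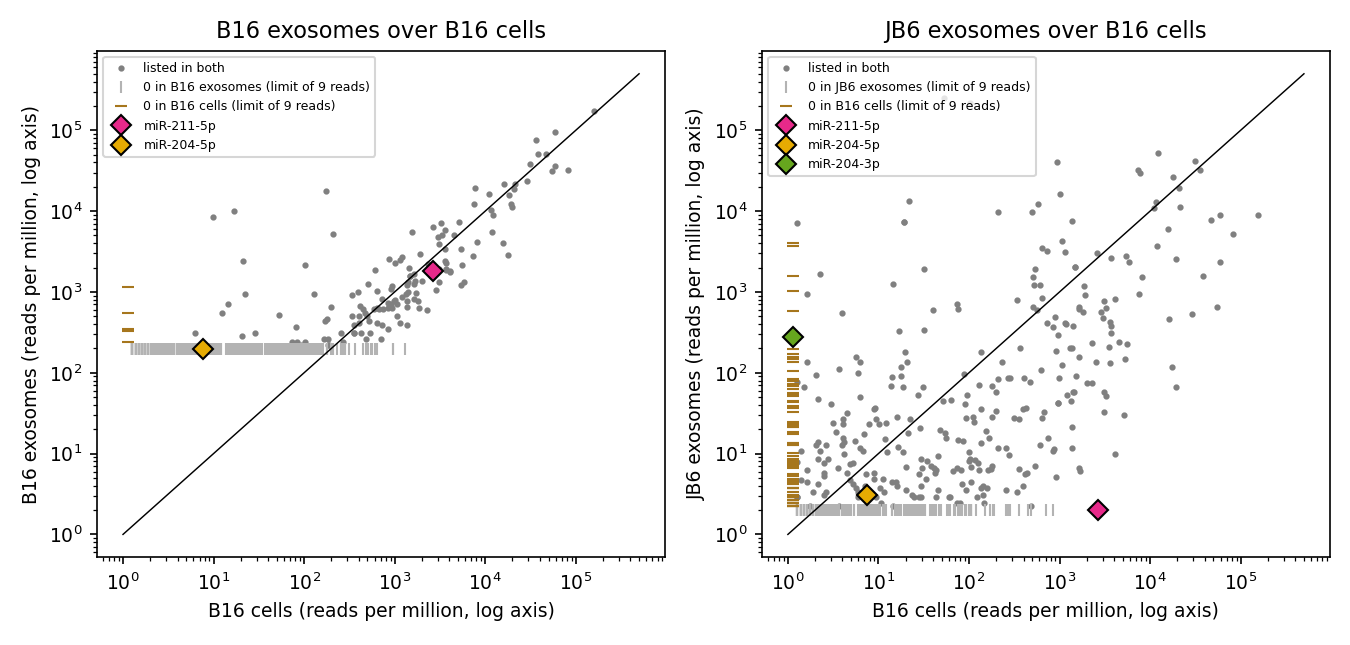
Shares of all listed miRNAs (RPM, log axes) in B16 exosomes against B16 cells (left) and in JB6 exosomes against B16 cells (right), 1 library each, with the diagonal marking equal shares. Ticks and dashes place a listed 0 at its limit of 9 reads. miR-211-5p lies close to the diagonal on the left, at 0.683 times its share in the cells, and at the JB6 limit on the right.

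B16 exosomes were set against JB6 exosomes to compare vesicles of a melanoma line and of a normal skin line. The 83 reads of miR-211-5p in B16 exosomes stood against 0 listed reads in JB6 exosomes, and its share was at least 908-fold higher in B16 exosomes with 9 reads taken for that 0, and the interval limit nearest to 1 was 456-fold. Of the 300 miRNAs tested, 31.3% were higher and 11.7% lower. The bound was 176-fold with TMM factors, 139-fold with DESeq2 size factors and 61.2-fold with the authors' totals, and the call was higher under each of these scalings. miR-204-5p, with 0 reads in B16 exosomes and 14 in JB6 exosomes, did not reach the minimum of 30 reads, and neither did miR-137-3p.

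A listed 0 in JB6 exosomes was not particular to miR-211-5p, but no other miRNA as abundant in B16 cells had one. Of the 559 miRNAs listed in B16 cells, 251 were at 0 in JB6 exosomes, and miR-211-5p had the most B16 cell reads of these. miR-374b-5p followed with 6731 reads, then miR-181a-1-3p with 5602, miR-30b-3p with 3819 and miR-301a-5p with 3586. Of the 149 miRNAs listed in B16 exosomes, 16 were at 0 in JB6 exosomes. There miR-211-5p was the third by count, after miR-690 with 390 reads and miR-677-5p with 110. Those 2 were scarce in the cells, with 79 reads of miR-690 and 167 of miR-677-5p. In all, 12 miRNAs were listed in both B16 libraries and at 0 in JB6 exosomes.

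**Figure D3:**
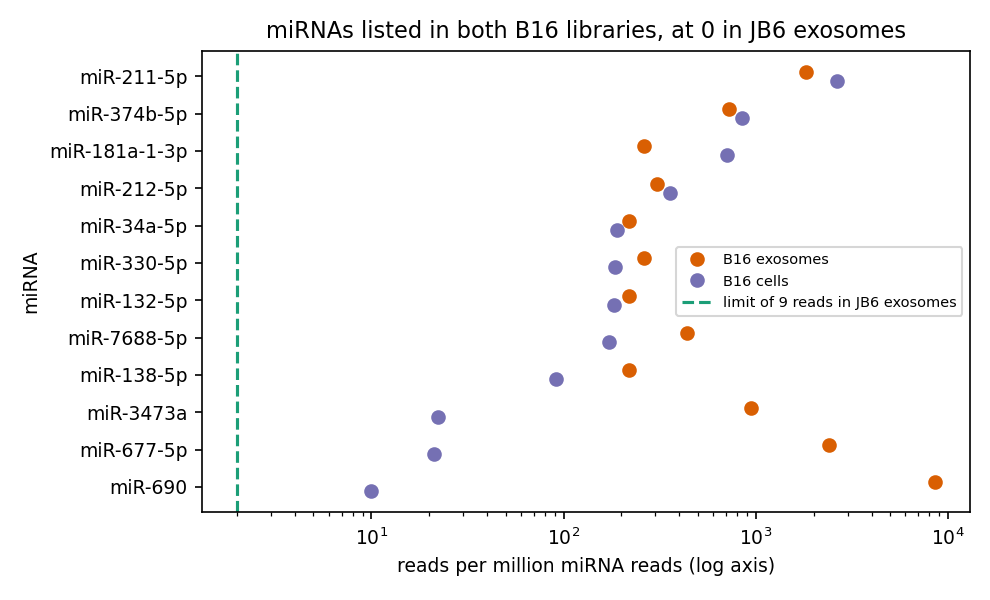
Shares (RPM, log axis) of the 12 miRNAs listed in B16 exosomes and in B16 cells and at 0 in JB6 exosomes, ordered by their reads in B16 cells. The dashed line marks the limit of 9 reads in JB6 exosomes, 2.002 RPM. miR-211-5p is at the top, with shares in both B16 libraries far to the right of that line, while miR-690 and miR-677-5p are frequent in the exosomes and scarce in the cells.

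The miRNAs whose pattern came closest to that of miR-211-5p were sought among the 11 others listed in the same 2 libraries only. Likeness was the distance between log2 shares after centring each miRNA on its own mean, over 2 libraries, so it ranks how similar the ratios of exosomes to cells are. miR-374b-5p came first at a distance of 0.22, with 33 reads in B16 exosomes and 6731 in B16 cells, a ratio of 0.851 (0.585 to 1.196). miR-212-5p was next at 0.23, with 14 and 2825 reads and a ratio of 0.860 (0.470 to 1.45). miR-34a-5p, miR-132-5p and miR-181a-1-3p followed at 0.54, 0.57 and 0.62, on 10 to 12 exosome reads. The intervals of all 5 overlap that of miR-211-5p, so their order is not resolved at this depth.

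JB6 exosomes were set against B16 cells as the pair of deep libraries, in which scarce miRNAs can be counted. miR-211-5p, with 0 reads in JB6 exosomes and 21080 in B16 cells, was at least 1329-fold lower in JB6 exosomes, with an interval limit nearest to 1 of 699.8-fold. miR-211-3p, with 0 reads in JB6 exosomes and 604 in B16 cells, was at least 38.1-fold lower, and its nearest limit was 19.9-fold. Lower calls were the common case here, at 60.7% of 501 miRNAs tested, against 26.1% higher. With DESeq2 size factors, the scaling that moved this comparison most, the bounds were 222-fold for miR-211-5p and 6.37-fold for miR-211-3p, and both remained lower.

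miR-204-5p had 14 reads in JB6 exosomes and 60 in B16 cells, and its share was 2.43-fold lower in JB6 exosomes (1.34 to 4.71) with library totals, while the ratio was 1.05 with TMM factors and 2.46 with DESeq2 size factors, so its direction turned with the scaling. Without the most abundant miRNAs of each library it was 1.53-fold lower and met no call. How many of the 60 reads in B16 cells came from miR-211-5p, 1 base away, was not tested. Of the 305 miRNAs listed in both of these libraries with 30 or more reads over the pair, miR-204-5p had the 161st lowest ratio, near the middle. Among 172 others listed in the same 2 libraries only, with the same minimum, miR-155-5p had the nearest ratio, with 88 reads in JB6 exosomes and 375 in B16 cells (distance 0.0058). miR-195a-3p, miR-6944-3p, miR-361-5p and miR-126b-5p followed at distances of 0.017 to 0.13. All of these ratios, from 0.361 to 0.450, lay inside the counting interval of miR-204-5p.

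The 3p arm of miR-204 went the other way. miR-204-3p had 0 reads in B16 exosomes, 1242 in JB6 exosomes and 0 in B16 cells. Its share in JB6 exosomes was 276 RPM (261 to 292), the 90th of 389 listed miRNAs, between miR-378c with 1336 reads and miR-129-5p with 1090. It was at least 243-fold higher in JB6 exosomes than in B16 cells, with a nearest limit of 128-fold, and the bound ran from 214-fold to 1454-fold over the other scalings. B16 exosomes could not be placed, because 12.6 reads were to be expected there at the JB6 share and at most 9 were present. Of the 389 miRNAs listed in JB6 exosomes, 81 were at 0 in B16 cells, and miR-204-3p had the sixth highest count of these, after miR-669c-5p, miR-206-3p, miR-543-3p, miR-486b-3p and miR-676-3p.

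The larger listed arm of the miR-204 hairpin differed between these libraries. The 5p arm took 1.11% of the hairpin's 1256 reads in JB6 exosomes (0.611 to 1.86), or 88.7 reads of the 3p arm for each read of the 5p arm (52.7 to 163). In B16 cells the 5p arm took all 60 listed reads, which is at least 87.0% when 9 reads are allowed for the 3p arm. Those 60 reads are uncertain, because miR-204-5p is 1 edit (a base changed, added or removed) from miR-211-5p, which had 21080 reads in the same library, and how many of the 60 came from miR-211-5p was not tested. The B16 side of the arm balance rests on them. Hairpins were compared this way where both libraries held 30 or more reads over both arms. The larger arm differed between JB6 exosomes and B16 cells in 22 of 136 hairpins, or 16.2%, and the difference in the share of the 5p arm had a median of 2.94 percentage points. With a listed 0 taken as 0, miR-204 had the second largest difference, 98.9 points, after miR-193b, and was followed by let-7d, miR-331, miR-23b and miR-423. In the same count the larger arm differed in 5 of 68 hairpins between B16 exosomes and JB6 exosomes and in 1 of 74 between B16 exosomes and B16 cells. miR-204 could not enter those counts. The mature sequence of miR-204-3p was at least 6 edits away from any other mature mouse miRNA in the RefSeq table, the nearest being miR-6998-5p.

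**Figure D4:**
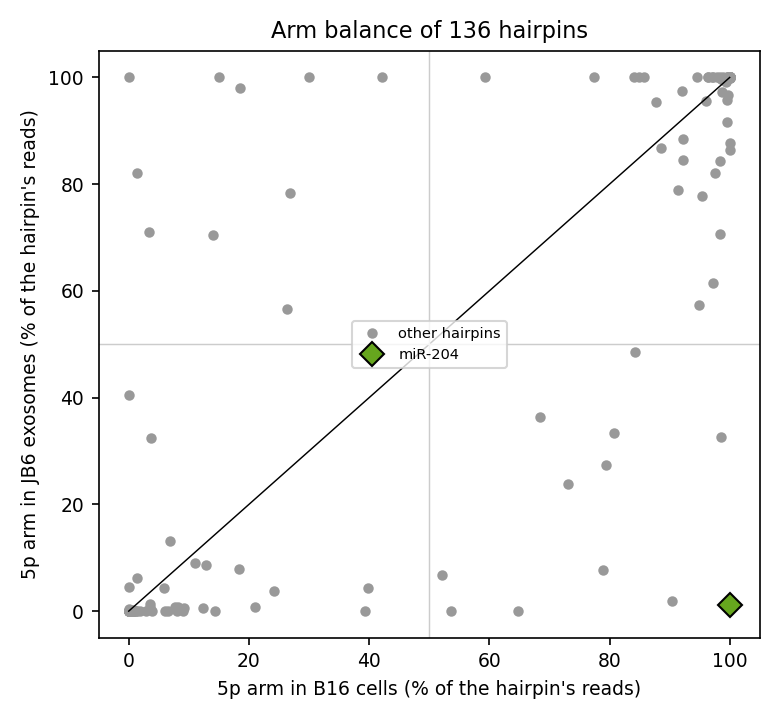
Share of a hairpin's reads on its 5p arm in JB6 exosomes (vertical, %) against B16 cells (horizontal, %) for the 136 hairpins with 30 or more reads in each library, with a listed 0 taken as 0. Points on the diagonal have the same balance in both. miR-204 lies in the lower right corner, with 1.11% on the 5p arm in JB6 exosomes.

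Other miRNAs tied to Mitf gave a setting for the members. A list of 8 miRNAs reported to target Mitf, or sharing the seed of one that does, held miR-101a-3p, miR-148a-3p, miR-148b-3p, miR-152-3p, miR-182-5p, miR-218-5p, miR-26a-5p and miR-340-5p. All 8 were listed in all 3 libraries, unlike any of the 3 members. Together they took 43917 RPM of the B16 exosome library, 222037 RPM of the JB6 exosome library and 30994 RPM of the B16 cell library. Most of the JB6 sum was miR-148a-3p, with 98 reads in B16 exosomes, 979782 in JB6 exosomes and 819 in B16 cells. miR-26a-5p was the most abundant of the list in B16 cells, with 21586 RPM in B16 exosomes, 466 RPM in JB6 exosomes and 16188 RPM in B16 cells.

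Between B16 exosomes and B16 cells, 2 of the 8 were higher, 0 lower and 6 neither with library totals, beside 8.53% higher and 7.82% lower of all 422 miRNAs tested. Those percentages are not a like base for the 8, which were all listed in both libraries. Of the 422, 267 were not resolved because of a listed 0, while 36 were higher, 33 lower and 86 neither. The median log2 ratio of the 8 was 0.53 beside 0.03 over all tested miRNAs listed in both. It turned to -0.49 with TMM factors and -3.55 with the authors' totals. A scaling moves every log2 ratio alike, here by -1.02 and -4.08, so the median over all these miRNAs moved by the same amounts. miR-148a-3p was 20.8-fold higher in the exosomes (16.7 to 25.6) and miR-182-5p 2.91-fold higher (1.45 to 5.25), on 11 exosome reads. With TMM factors 1 was higher, 2 were lower and 5 neither, and miR-182-5p was no longer called. With the authors' totals 0 were higher and 7 lower. Over all 422 miRNAs 16 were higher and 93 lower with TMM factors, and 9 and 257 with the authors' totals. With library totals the ratios of the other 6 ran from 0.573 for miR-218-5p to 1.61 for miR-148b-3p, and miR-211-5p at 0.683 lay inside that range. miR-340-5p had a ratio of 0.615 (0.480 to 0.776) and miR-101a-3p one of 1.197 (0.888 to 1.58).

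Between B16 exosomes and JB6 exosomes, 6 of the 8 were higher and 2 lower with library totals, beside 31.3% higher and 11.7% lower of all 300 miRNAs tested. Here too the percentages are not a like base for the 8. Of the 300, 146 were not resolved because of a listed 0, while 94 were higher, 35 lower and 25 neither. For the 8 the counts were 4 higher and 2 lower with TMM factors, 3 and 2 with DESeq2 size factors, and 2 and 3 with the authors' totals. Over all 300 miRNAs the numbers higher and lower were 61 and 97, 57 and 109, and 40 and 153 in that order. The median log2 ratio was 3.43 beside 2.62 over all tested miRNAs listed in both, and it was 1.06 with TMM factors, 0.73 with DESeq2 size factors and -0.46 with the authors' totals. These scalings moved the median over all these miRNAs by the same amounts, -2.37, -2.70 and -3.89 in that order. The lower pair was miR-148a-3p, 101.6-fold lower in B16 exosomes, and miR-218-5p, 6.26-fold lower. miR-26a-5p was 46.3-fold higher (42.9 to 50.02), miR-182-5p 38.7-fold (17.4 to 80.1) and miR-148b-3p 13.2-fold (12.03 to 14.4). miR-152-3p, which shares the seed of the miR-148 pair, was 10.03-fold higher, and miR-340-5p 11.6-fold. With the authors' totals the ratios of miR-101a-3p, miR-148b-3p, miR-152-3p and miR-340-5p fell below 1, and that of miR-101a-3p did so with DESeq2 size factors too. The bound for miR-211-5p, at least 908-fold, exceeded each of these.

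Between JB6 exosomes and B16 cells, 2 of the 8 were higher and 6 lower, near the shares of 26.1% higher and 60.7% lower over all 501 miRNAs tested. The median log2 ratio of -2.86 stood beside -1.47 over all tested miRNAs listed in both. miR-340-5p was 18.8-fold lower in JB6 exosomes, miR-182-5p 13.3-fold lower and miR-26a-5p 34.8-fold lower. The median of the 8 stayed below 0 under every scaling tried and was -0.28 with DESeq2 size factors, where 2 were higher and 3 lower. Those factors moved the median over all miRNAs by the same 2.58, and 204 of all 501 were then higher and 134 lower.

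**Figure D5:**
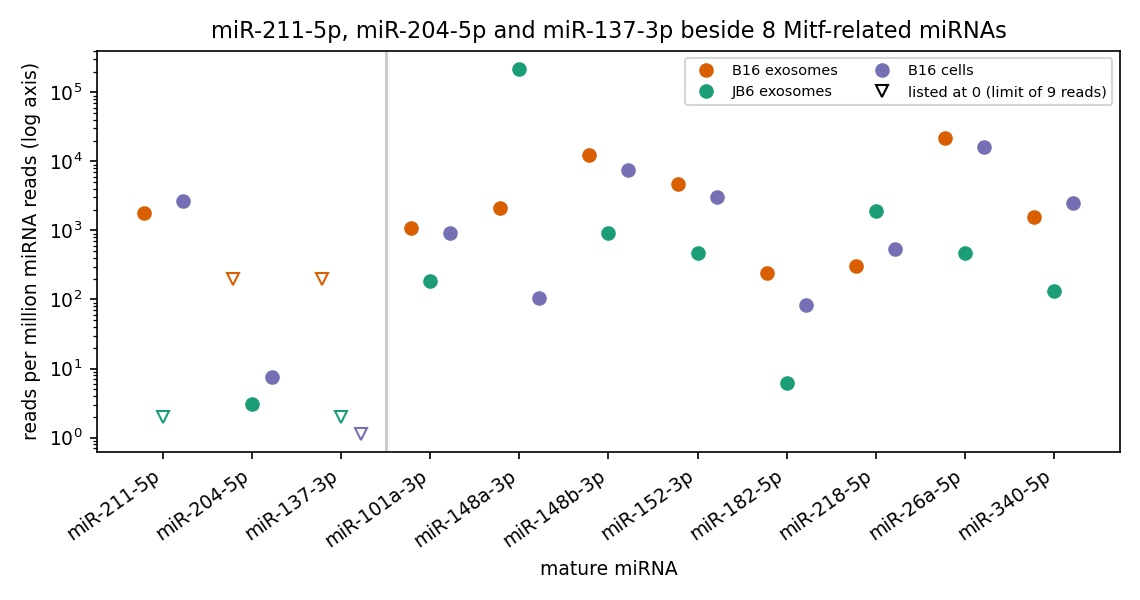
Shares (RPM, log axis) of miR-211-5p, miR-204-5p and miR-137-3p (left of the line) and of 8 Mitf-related miRNAs (right of it) in B16 exosomes, JB6 exosomes and B16 cells, 1 library each. Open triangles mark the limit of 9 reads for a listed 0. All 8 on the right have filled points in every library, while miR-211-5p has none in JB6 exosomes and miR-137-3p has none at all.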

How the data were processed

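Small RNA was sequenced from B16 exosomes, JB6 exosomes and B16 cells, 1 library each. Per the labels' protocols, ultracentrifugation gave the exosomes, Trizol the RNA, and a standard Illumina procedure the libraries. bcl2fastq, BWA and the build mm10 are named in the submitters' processing notes. Versions, annotation release, mismatch and multi-match handling and the use of strand are settings not given in the sources used. The deposited tables hold whole-number counts of reads per mature miRNA, which the authors listed as 0 below 10 reads. They also hold a normalized value in RPM from the authors, which is the count times 1 constant per table, on totals of 847694, 5626936 and 8721363 reads for these libraries in that order.

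Shares were taken of summed miRNA counts. miR-486a-5p and miR-486b-5p had the same counts, 32994 each in JB6 exosomes and 153 each in B16 cells. A sum may therefore hold some reads more than once. Ratios carry exact conditional binomial (Clopper-Pearson) 95% intervals, computed with scipy 1.17.1. Since reads carried no molecular identifiers, they are no independent molecules. The ratio step was run on simulated data, scored only for miRNAs listed in both libraries and with the scaling known. That run therefore could not check the bounds for a listed 0 or the choice of scaling. For a listed 0, 9 reads were taken, so its ratio is a bound. Alternatives were edgeR 4.0.16 TMM factors, DESeq2 1.42.0 size factors, totals that leave out the 10 most abundant miRNAs of each library, the authors' totals, other minimums, a listed 0 taken as 3 reads and the summed seed twins. Named miRNAs were the members and their other arms, miRNAs with a member's seed, neighbours in rank, the 5 nearest in pattern, and the Mitf-related list, with the most abundant and the extreme members of other lists. The members and lists were chosen with earlier results of these data known. Other miRNAs that stand at 0 in 1 library, and hairpins named for their arm balance, were chosen after their values were seen. Of the 1915 entries, 1623 matched the RefSeq sequences by name.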

Additional observations from a re-analysis of the deposited data

How the results depend on the processing

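Values here are log2 ratios of shares, or numbers of miRNAs called. Relative to library totals, log2 ratios of B16 exosomes over B16 cells moved by -1.02 with TMM factors, -0.13 with DESeq2 size factors, 0.06 when the 10 most abundant miRNAs were left out and -4.08 with the authors' totals. Those of B16 exosomes over JB6 exosomes moved by -2.37, -2.70, -0.61 and -3.89, and those of JB6 exosomes over B16 cells by 1.35, 2.58, 0.67 and -0.19. miR-211-5p in B16 exosomes over B16 cells was -1.57 with TMM and -4.63 with the authors' totals, both lower calls, against -0.55. In B16 exosomes over JB6 exosomes it was 7.46 with TMM, 7.12 with DESeq2 and 5.94 with the authors' totals, and 11.41 with a listed 0 taken as 3 reads, against 9.83. In JB6 exosomes over B16 cells it was -9.03 with TMM, -7.80 with DESeq2 and -11.96 with 3 reads, against -10.38. miR-204-5p in JB6 exosomes over B16 cells turned to 0.067 with TMM and 1.30 with DESeq2, against -1.28. Summed with miR-211-5p it was -9.74, because the sum is nearly all miR-211-5p. miR-211-5p over miR-204-5p, with a listed 0 taken as 3 reads (chosen after seeing the data), was 4.79 in B16 exosomes and -2.22 in JB6 exosomes. In B16 exosomes over B16 cells, 16 were higher and 93 lower with TMM, 9 and 257 with the authors' totals, and 23 and 14 with an interval bound of at least 2-fold, against 36 and 33. In B16 exosomes over JB6 exosomes these were 61 and 97 with TMM, 57 and 109 with DESeq2, and 40 and 153 with the authors' totals, against 94 and 35. In JB6 exosomes over B16 cells, 202 were lower with TMM, and 204 higher and 134 lower with DESeq2, against 131 and 304. Every other count under these alternatives lay within 1.5 times. The depth of the B16 exosome library limits miR-204-5p, miR-211-3p and miR-204-3p there. No paired analysis was possible because each group has 1 library. Unresolved members have no value to vary, and no replicate could be left out.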

Other observations

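Lists of miRNAs reported to restrain or to promote melanoma growth or invasion were read beside the members. Of 13 that restrain it, 6 were listed in B16 exosomes, 8 in JB6 exosomes and 10 in B16 cells. miR-31-5p stood next to miR-211-5p in B16 exosomes, with 84 reads there, 45 in JB6 exosomes and 32353 in B16 cells. With library totals it was 184-fold higher in B16 exosomes than in JB6 exosomes (126 to 270.1) and 2.22-fold lower than in B16 cells (1.79 to 2.78). The first of these ratios moves by a log2 of -3.89 with the authors' totals. Of 7 list members tested between the exosomes, 3 were higher in B16 exosomes, 2 lower, 1 neither and 1 not resolved. Over all 300 miRNAs 31.3% were higher and 11.7% lower, with 25 neither and 146 not resolved. The lower pair of the list was miR-125b-5p, 8.18-fold, and miR-206-3p, at least 18.8-fold. With TMM factors 3 were higher and 4 lower, beside 61 and 97 of the 300. miR-9-5p had 516, 302 and 155066 reads in B16 exosomes, JB6 exosomes and B16 cells, and miR-34a-5p had 10, 0 and 1500. Between B16 exosomes and B16 cells 9 list members were tested, of which 1 was higher, 1 lower, 4 neither and 3 not resolved with library totals. Of all 422 miRNAs tested 8.53% were higher and 7.82% lower, with 86 neither and 267 not resolved. The 1 higher was miR-145a-5p, 2.98-fold (2.46 to 3.57), and its ratio fell below 1 with the authors' totals. With TMM factors 0 of the 9 were higher and 4 lower, beside 16 and 93 of the 422. let-7b-5p was the most abundant of the list in JB6 exosomes, with 58471 reads, and miR-206-3p, at 0 in both B16 libraries, had 16619.

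Of 10 miRNAs reported to promote melanoma, 8 were listed in B16 exosomes, 10 in JB6 exosomes and 9 in B16 cells. miR-30d-5p was the most abundant in B16 cells, with 1475 reads in B16 exosomes, 23631 in JB6 exosomes and 652141 in B16 cells. miR-214-3p had 890 reads in JB6 exosomes and was at 0 in both B16 libraries. Between B16 exosomes and B16 cells 9 of the 10 had enough reads to be tested. Of these 4 were higher, 1 was lower, 3 were neither and 1 was not resolved with library totals. Over all 422 miRNAs tested 8.53% were higher and 7.82% lower, but 267 were not resolved, so those percentages are not a like base. In counts, 36 of the 422 were higher, 33 lower and 86 neither. For the list the numbers higher and lower were 1 and 2 with TMM factors, and 0 and 8 with the authors' totals. Over all 422 miRNAs they were 16 and 93 with TMM factors, and 9 and 257 with the authors' totals. miR-199a-5p had the largest ratio of the list, 13.7-fold higher in B16 exosomes (7.13 to 24.03) on 13 exosome reads, and fell below 1 with the authors' totals.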
